A study of Mus musculus with 2 samples.

Results

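The myogenic transcription factors are the DNA-binding proteins that specify muscle stem cells, commit them to the muscle lineage and run the genes of the mature fiber. The 9 factors described here were chosen by name: the paired box factors Pax3 and Pax7, the myogenic regulatory factors Myf5, Myod1, Myog and Myf6, and the MEF2 factors Mef2a, Mef2c and Mef2d. Each name stood on 1 line of a table of 34745 genes. The study concerns skeletal muscle repair, and its data are RNA sequencing counts of mouse gastrocnemius, a calf muscle made mostly of fast fibers, in 2 libraries of total RNA. Both groups carry the floxed, conditional allele of Tecrl, an enzyme related to enoyl-CoA reductases, and the TECRLflox/flox group served as the control. TECRLscko mice carry Pax7-Cre (Pax7tm1(cre)Mrc) in addition, meant to delete Tecrl in the satellite cells, from which muscle is repaired. Cre is expressed from the Pax7 locus, so Pax7 is at once a factor described here and the locus that carries the Cre allele in the TECRLscko group; the effect of that allele on the Pax7 count was not tested. Age, sex, any injury, its timing and how many mice were pooled are not stated in the labels, which name no Cre in the control group.

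Total counts were 19281017 for the control and 16946124 for TECRLscko. With 1 library per group the spread between mice was not measured. No p-value is therefore given, every difference is between these 2 libraries, and each interval is an exact 95% interval that covers counting error only. Levels are in CPM, the count normalized to library size, scaled with TMM, a factor that limits the weight of a few very abundant genes. Tecrl had 3 counts in the control and 4 counts in the TECRLscko library, too few to check its deletion in whole muscle. Whether cells other than satellite cells, the fibers among them, also carried the deletion was not measured. The tissue label was borne out by its markers: Myh4, the fastest myosin heavy chain, stood at 28231 CPM in the control against 28026 CPM in TECRLscko. All 10 satellite cell markers, Pax7 included, reached a mean of 1 CPM, Chrdl2 only through the control, with 5 above and 5 below the control. The sum of the 10 markers, 175 CPM in the control against 154 CPM in TECRLscko, is weighted by Itga7 (85.1 against 72.5 CPM) and Sdc4 (38.9 against 26.2 CPM). Which cells made these transcripts was not measured. In whole muscle, fewer cells of a type and less RNA per cell cannot be told apart.

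Muscle is built and repaired by a relay of these factors. Pax3 and Pax7 mark muscle progenitors, and Pax7 stays on in the satellite cells of adult muscle. Myf5 and Myod1 are basic helix-loop-helix (bHLH) factors that commit a progenitor to the lineage, myogenin (Myog) drives exit from the cell cycle and fusion, and Myf6, also called MRF4, is the main myogenic bHLH factor of adult fibers. These proteins bind DNA at E-boxes as partners of the E proteins. The MEF2 factors bind an AT-rich site, act together with the bHLH factors and keep contractile and metabolic genes active in the fiber. Adult fibers also hold some Myod1 and Myog message, Myod1 more in fast and Myog more in slow muscle of rodents.

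RefSeq promoter windows (GRCm38.p6) were at hand for 6 of the 9 factors, namely Pax7, Myf5, Myog, Mef2a, Mef2c and Mef2d. The 250 bases before each annotated start were searched on both strands for the E-box CANNTG, for the MEF3 site TCAGGTTTC, an element of muscle gene promoters, for the MEF2 site known from the Myog promoter, and for the MEF2 consensus. The bases of each window past the start were searched as well. Of these windows 3 stretches are shown, each with a letter match to an E-box or a MEF2 site, the kinds that the factors bind. They are those of Myog and of Mef2c, both lower in the TECRLscko library, and that of Mef2a, which was higher. Capitals mark the matches, and position -1 is the last base before the RefSeq start.
Myog: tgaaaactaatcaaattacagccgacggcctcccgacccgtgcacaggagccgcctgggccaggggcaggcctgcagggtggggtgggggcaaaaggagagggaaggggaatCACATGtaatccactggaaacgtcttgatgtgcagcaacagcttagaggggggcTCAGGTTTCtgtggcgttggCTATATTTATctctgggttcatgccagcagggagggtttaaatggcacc
Mef2c: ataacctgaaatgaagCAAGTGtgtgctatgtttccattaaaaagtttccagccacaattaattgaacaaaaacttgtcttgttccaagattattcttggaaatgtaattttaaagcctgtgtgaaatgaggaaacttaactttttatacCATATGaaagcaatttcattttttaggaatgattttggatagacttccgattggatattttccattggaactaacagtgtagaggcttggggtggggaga
Mef2a: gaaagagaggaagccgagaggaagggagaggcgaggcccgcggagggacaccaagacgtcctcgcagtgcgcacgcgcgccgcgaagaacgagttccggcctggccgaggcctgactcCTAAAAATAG
The Myog stretch (chr1:134289754-134289988, plus strand) runs from position -250 to -16 and holds an E-box at -138, the MEF3 site at -84 and, as the last capitals, the MEF2 site at -64; a second E-box lies at -12, after its end. The Mef2c stretch (chr13:83503784-83504033, plus strand) belongs to the most upstream of 3 annotated starts and holds E-boxes at -234 and -100. The most downstream of the 3 starts, whose window is not shown, has an E-box at -245. The Mef2a stretch (chr7:67372851-67372978, minus strand) runs from -120 to 8 bases past the start and shows a match to the MEF2 consensus that begins at -2. In the 250 bases before the start of 32851 mouse promoter windows, 66.2% hold an E-box and 2.92% the MEF2 consensus. The MEF3 site is held by 0.387% and the letters of the Myog MEF2 site by 0.07%. The Mef2a match reaches past the start, so it lies outside the stretch that these shares count. No E-box, MEF3 site or MEF2 match lay in the 250 bases before the starts of Myf5, Mef2d or Pax7. A match is a run of letters and does not show that a factor was bound in these muscles.

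The stem cell factor Pax7 was higher in the TECRLscko library and Pax3 was close to absent from both. Pax7 (ENSMUSG00000028736, chromosome 4, 139737062 to 139833528, GRCm38) had 58 counts in the control and 76 counts in the TECRLscko library, or 2.94 and 4.59 CPM. The TECRLscko to control ratio was 1.56, with an interval of 1.10 to 2.24. Its log2 ratio, computed with 0.5 CPM added to both levels, was 0.57, just under the 1.5-fold rule used here to call a gene (0.58 on the log2 scale). It exceeded that of 90.2% of the 12559 genes that averaged 1 CPM or more over both libraries, which are all genes compared here. Pax3 (ENSMUSG00000004872, chromosome 1, 78101267 to 78197134) had 4 counts in each library, which is near the floor of 3 counts, and its ratio of 1.19 had an interval of 0.222 to 6.40. Neither a loss nor a gain of Pax3 was detectable at this depth, and it is the 1 factor that did not reach the mean of 1 CPM.

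Of the commitment factors, Myod1 and Myog were lower in the TECRLscko library, and Myf5 lay below the control within its counting interval. Myod1 (ENSMUSG00000009471, chromosome 7, 46376474 to 46379092) had 417 counts in the control against 205 counts, or 21.1 against 12.4 CPM. The TECRLscko level was 1.71-fold lower (1.44 to 2.03). Only 1.96% of the compared genes had a log2 ratio as low as the -0.75 of Myod1. Myog (ENSMUSG00000026459, chromosome 1, 134289989 to 134292548), whose promoter is shown above, had 212 counts in the control and 115 counts in the TECRLscko library. Its level of 10.7 against 6.95 CPM was 1.55-fold lower (1.23 to 1.96), with a log2 ratio of -0.59. Myf5 (ENSMUSG00000000435, chromosome 10, 107482908 to 107486134), which quiescent satellite cells already transcribe, rested on few counts. It had 64 counts against 38, or 3.24 against 2.30 CPM, and the interval of its ratio of 0.708 ran from 0.461 to 1.07, so that a difference was not detectable at this depth. Myog stood in a similar proportion to Myod1 in both libraries, at 0.508 Myog counts per Myod1 count in the control against 0.561 in TECRLscko, and the interval of the quotient of 1.10 ran from 0.823 to 1.48.

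**Figure D1:**
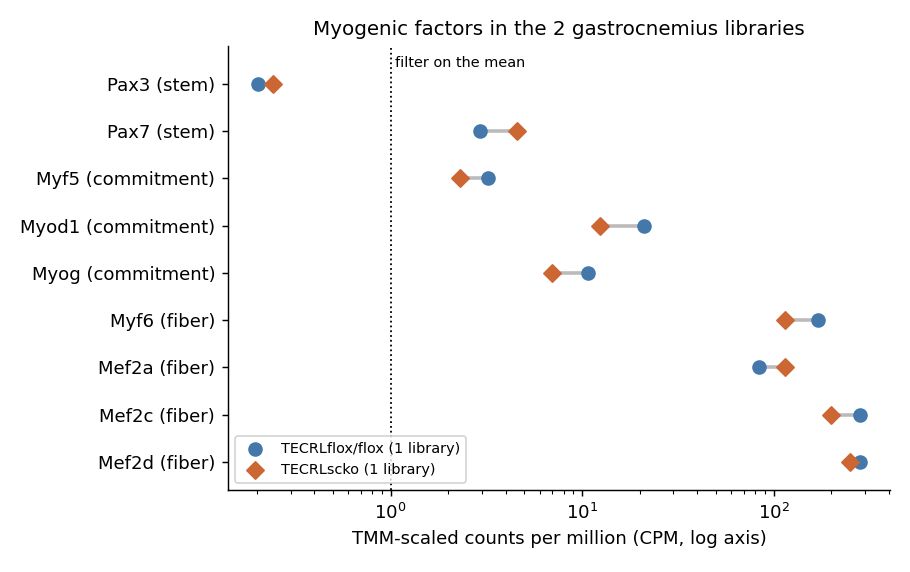
Level of each of the 9 factors in the 2 libraries, in TMM-scaled CPM on a log axis; circles are the TECRLflox/flox and diamonds the TECRLscko library, and the dotted line marks the filter of a mean of 1 CPM. Diamonds lie to the right of circles for Pax3, Pax7 and Mef2a and to the left for the other 6 factors; Pax3, at 4 counts in each library, lies left of the filter.

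Among the fiber factors, Myf6 and Mef2c were lower, Mef2d slightly lower and Mef2a higher in the TECRLscko library. Myf6 (ENSMUSG00000035923, chromosome 10, 107492860 to 107494729) had 3387 counts in the control against 1893 counts in TECRLscko, or 172 against 114 CPM. The ratio was 0.666 (0.630 to 0.705). With 0.5 CPM added its log2 ratio was -0.58, so Myf6 lay at the edge of the 1.5-fold rule, on the inner side. Myf6 and Myf5 are neighbors 6725 bp apart on chromosome 10, and the number of Myf6 counts per Myf5 count was 52.9 in the control against 49.8 in TECRLscko; the quotient was 0.941 (0.618 to 1.45).

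The MEF2 factors did not go together. Mef2c (ENSMUSG00000005583, chromosome 13, 83504034 to 83667080) had 5606 counts against 3316, or 284 against 200.3 CPM, and was 1.42-fold lower (1.36 to 1.48). Mef2d (ENSMUSG00000001419, chromosome 3, 88142372 to 88172086) had 5572 counts against 4153, or 282 against 251 CPM, and was 1.13-fold lower (1.08 to 1.17). Mef2a (ENSMUSG00000030557, chromosome 7, 67231163 to 67372858) had 1647 counts in the control against 1892 in the smaller TECRLscko library, or 83.4 against 114 CPM, and was 1.37-fold higher (1.28 to 1.46). Mef2c and Mef2d were nearly equal in counts in the control, with 1.01 Mef2c counts per Mef2d count, and stood at 0.798 in the TECRLscko library. The number of Mef2c counts per Mef2a count was 3.40 in the control against 1.75 in TECRLscko, 1.94-fold lower (1.79 to 2.10). The antisense model 1700113A16Rik overlaps the end of Mef2d; summing its few counts with those of Mef2d left the log2 ratio at -0.17, and none of the other factors overlaps another model in the table.

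Of the 9 factors, 8 reached a mean of 1 CPM. By the 1.5-fold rule 2 of them, Myod1 and Myog, were lower and 0 were higher; over all 12559 genes 3.88% were lower and 9.24% higher by that rule. Among the 9700 genes averaging 5 CPM or more, the class of Myod1, Myog, Myf6 and the MEF2 factors, 2.85% were lower and 8.32% higher. Pax7 and Myf5 lie among the 2859 genes between 1 and 5 CPM, of which 7.38% were lower and 12.4% higher. No factor reached 2-fold, which 3.07% of all genes did in either direction. The counting interval lay wholly below 1 for 5 factors (Myod1, Myog, Myf6, Mef2c and Mef2d), as it did for 23.8% of all genes. It lay above 1 for Pax7 and Mef2a, against 24.1% of all genes. The median log2 ratio of the 8 factors was -0.46, and that of all genes was -0.02 with quartiles of -0.21 and 0.24. The 4 myogenic bHLH factors together had 4080 counts in the control and 2251 counts in the TECRLscko library, and their sum was 1.52-fold lower (1.44 to 1.60).

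**Figure D2:**
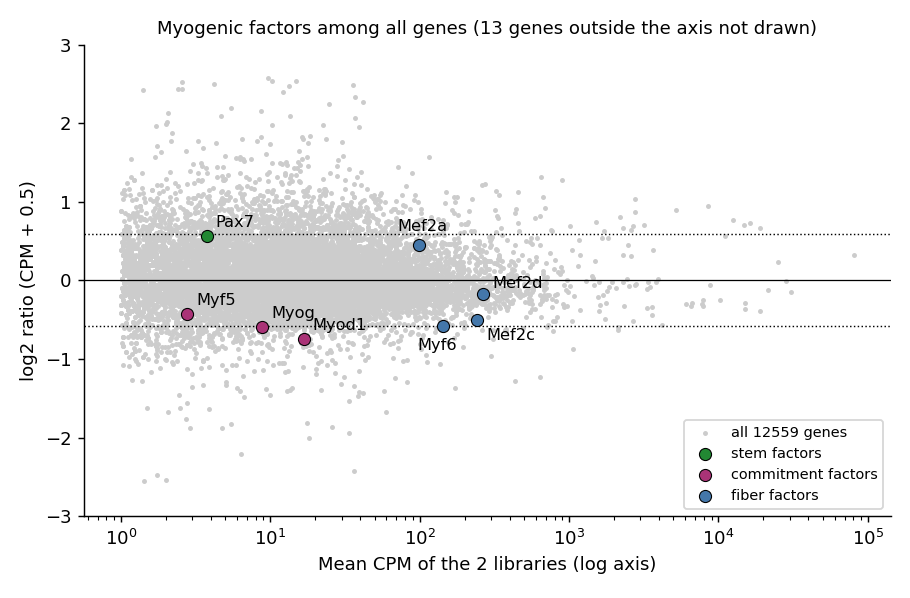
Log2 ratio of TECRLscko over TECRLflox/flox (0.5 CPM added) against the mean CPM of the 2 libraries on a log axis, for all 12559 genes at or above a mean of 1 CPM (grey) and the 8 factors that reached it (colored by role). Dotted lines mark 1.5-fold; Myod1 and Myog lie below the lower line, Myf6 on it, and no factor above the upper line; 13 genes beyond a log2 ratio of 3 in either direction are not drawn.

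Ratios between factors within a library do not depend on how the libraries are scaled, so the balance of stem cell, commitment and fiber factors was compared in raw counts. For each Pax7 count the control library held 7.19 Myod1 counts and the TECRLscko library 2.70, a 2.66-fold lower proportion (interval 1.79 to 3.97). Myog per Pax7 was 2.41-fold lower (1.57 to 3.72), Myf5 per Pax7 was 2.20-fold lower (1.26 to 3.87) and Myf6 per Pax7 was 2.34-fold lower (1.64 to 3.37). Mef2a was the exception, with 28.4 counts per Pax7 count in the control against 24.9 in TECRLscko, a ratio of 0.877 whose interval of 0.608 to 1.26 includes no change. The 3 commitment factors summed to 11.2 counts per count of Pax3 and Pax7 in the control and to 4.48 in TECRLscko, 2.50-fold lower (1.72 to 3.63). The 4 fiber factors per stem cell factor count were 1.86-fold lower (1.32 to 2.64). These proportions rest on 62 and 80 counts of the stem cell factors. Corrected for transcript length and base composition, their log2 values went from -1.32 to -1.10 for commitment and from -0.89 to -1.04 for fiber factors. The proportions per Pax7 count are given without that correction. They all divide by the same Pax7 counts, 58 in the control and 76 in TECRLscko, so they are not separate differences. Taken alone, Mef2d was 1.13-fold lower and the Myf5 interval of 0.461 to 1.07 included no change. Pax7 is also the locus that carries the Cre allele in TECRLscko. Commitment factors per fiber factor were 1.34-fold lower (1.18 to 1.53), a log2 value of -0.43 that came to -0.058 once transcript length and base composition were corrected for.

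**Figure D3:**
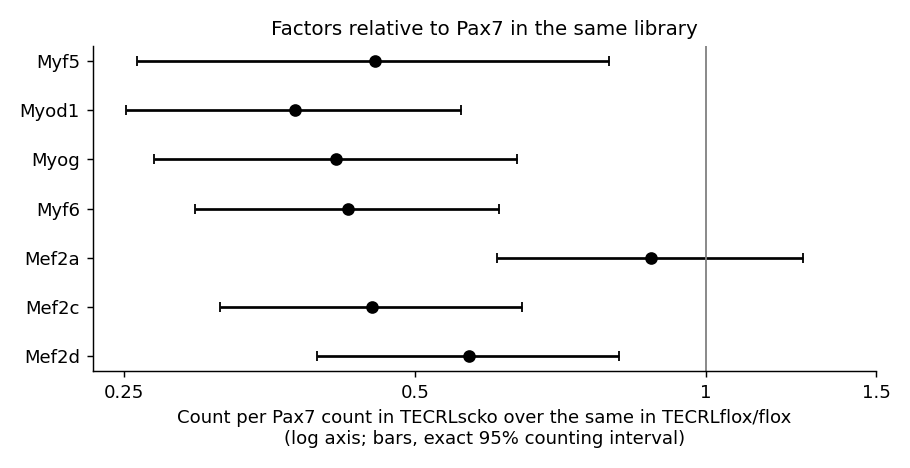
Counts of each factor per Pax7 count in the TECRLscko library, divided by the same proportion in the TECRLflox/flox library, on a log axis; bars are exact 95% counting intervals and the vertical line marks no change. The values of 6 factors lie between 0.376 for Myod1 and 0.569 for Mef2d with intervals below 1, and the interval of Mef2a includes 1. All values divide by the same Pax7 counts, so they are not separate differences.

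Levels of different factors can be set side by side only per length of message. In the authors' FPKM, a count divided by gene length and library size, Myf6 was the most abundant factor in both libraries, at 141 FPKM in the control against 89.5 FPKM in TECRLscko, and Mef2d followed at 32.01 against 27.1 FPKM. The deposited FPKM of Mef2c, 6.92 in the control, would place it under Myod1 at 11.7 FPKM and Myog at 7.35 FPKM; in TECRLscko its 4.66 FPKM lay between Myod1 at 6.52 and Myog at 4.54 FPKM. The gene length behind that value is 42007 bases, whereas the longest annotated Mef2c transcript has 6277 bases. The lengths behind the FPKM of Mef2a and Mef2d, 13911 and 9027 bases, also exceed their longest transcripts of 5538 and 5401 bases. Per kilobase of the longest transcript, Mef2c stood at 45.2 CPM per kilobase in the control, after Myf6 at 136 and Mef2d at 52.3, and ahead of Mef2a at 15.1, Myod1 at 11.4 and Myog at 7.18. Myf5 at 1.56, Pax7 at 0.502 and Pax3 at 0.0525 CPM per kilobase closed the order. In the TECRLscko library the order on this scale was the same, with Myf6 at 90.5, Mef2d at 46.4, Mef2c at 31.9, Mef2a at 20.6, Myod1 at 6.65, Myog at 4.65, Myf5 at 1.10, Pax7 at 0.784 and Pax3 at 0.0625 CPM per kilobase. Myf6 gave 50.5% of the summed level of the 9 factors in the control against 44.6% in TECRLscko, while the share of Mef2a was 5.60% and 10.2%. In deposited FPKM the shares were 68.0% against 62.9% for Myf6 and 2.97% against 5.64% for Mef2a. On that scale, which rests on a Mef2a length of 13911 bases, the order was not the same in both libraries. Mef2a, at 6.14 FPKM in the control, lay below Myod1, Myog and Mef2c and, at 8.03 FPKM in TECRLscko, above them. Per kilobase of the longest transcript Mef2a exceeded Myod1 and Myog in both libraries. Without replicates, whether neighbors in this order differ beyond the spread between mice was not measured.

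Transcript length and base composition moved with these ratios. With genes split into 10 classes of transcript length, the longest class had a median log2 ratio of 0.33 and the shortest one of -0.17. Split by GC content, the poorest class stood at 0.36 and the richest at -0.17. The 4 bHLH factors have short messages, from 1263 bases for Myf6 to 2083 bases for Myf5, and the Myod1 transcript has a GC content of 58.9%. The 3 MEF2 messages and that of Pax7 are longer, from 5401 bases for Mef2d to 6277 bases for Mef2c, and Mef2a (42.0% GC) and Mef2c (40.8% GC) are poor in GC. After a correction of the log2 ratios for both properties Myod1 came to -0.51 and Myog to -0.38, so that neither reached 1.5-fold. Mef2c went to -0.95 and was then the 1 factor at least 1.5-fold lower, a rule met after the correction by 3.64% of all genes, while 4.56% were higher. Mef2a came from 0.45 to 0.10, while Pax7 (0.51), Myf5 (-0.55), Myf6 (-0.52) and Mef2d (-0.20) kept their direction and their side of the rule. The median of the 8 factors was -0.45 after the correction, and 6 of them were below the control before and after it. Over all genes 6510 of 12559 lay below the control before the correction and 6609 of 12524 after it.

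**Figure D4:**
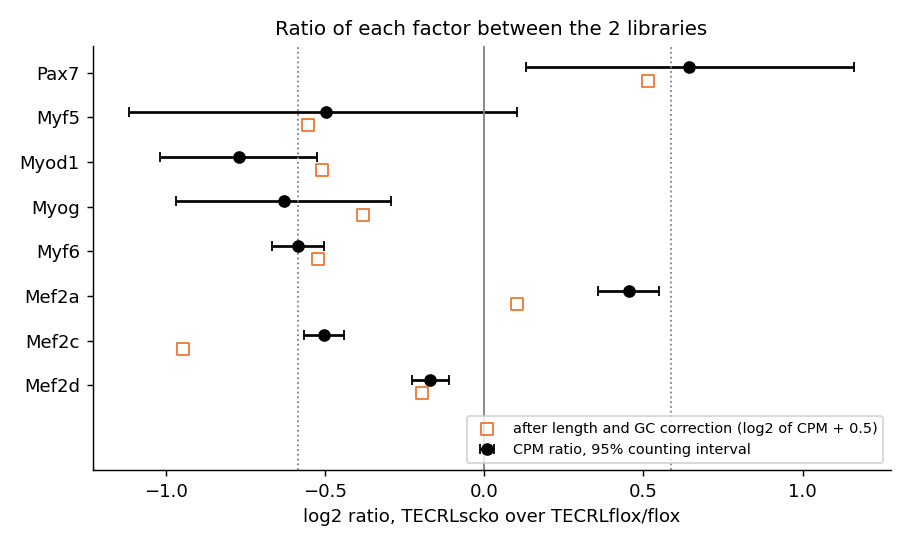
Log2 ratio of TECRLscko over TECRLflox/flox for the 8 factors at or above a mean of 1 CPM; black points are plain CPM ratios with exact 95% counting intervals, open squares the ratios corrected for both the length and the GC content of transcripts, and dotted lines mark 1.5-fold. The square of Mef2c lies far left of its point, at -0.95, and that of Mef2a close to 0, at 0.10.

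Genes that act with or against the bHLH factors were compared next. Of the 3 E proteins, their dimer partners, 1 differed by more than 1.5-fold. Tcf4, which encodes the E protein E2-2, had 176 counts in the control against 603 counts, or 8.92 against 36.4 CPM, and was 4.08-fold higher (3.45 to 4.86); after the length and GC correction its log2 ratio of 1.97 was 1.42. Tcf12 (0.25) and Tcf3 (0.17) were within 1.5-fold; the correction brought Tcf12 to -0.06, and the counting interval of the Tcf3 ratio, 0.96 to 1.33, includes no change. Inhibitors of the bHLH factors were mostly below the control. Of 16 such genes 13 reached 1 CPM. Of these, 12 lay below the control, 5 were at least 1.5-fold lower and none was 1.5-fold higher, with a median log2 ratio of -0.34. Over all 12559 genes 3.88% were at least 1.5-fold lower and 9.24% higher, and 6510 lay below the control. The Notch target Hes1 went from 22.95 CPM in the control to 10.4 CPM in TECRLscko (log2 ratio -1.11), and the repressors Snai1 (-0.98, on 33 against 10 counts), Twist1 (-0.70, on 37 against 16 counts), Zeb1 (-0.69) and Bhlhe41 (-0.59) were the other 4. Snai1 and Twist1 reached the mean of 1 CPM only through the control, where they were high. Their part in the counts of 12 and 5 and in the median therefore follows from the filter. Bhlhe40, the most abundant of the list at 179 CPM in the control, stood at 0.11. After the length and GC correction 4 of the 13 were still at least 1.5-fold lower, against 3.64% of all genes. These were Hes1 (-0.95), Zeb1 (-0.91), Bhlhe41 (-0.79) and Snai1 (-0.73). Twist1 came to -0.45, and Snai1 passed the filter only through the control. Hes1 and Zeb1 are also made by other cells of the muscle, and this table does not tell which cells carried the difference.

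Factors upstream of the myogenic factors were mostly within 1.5-fold. Of 16 such genes, the Eya family among them, 2 were at least 1.5-fold higher and 1 lower, with a median of 0.05. Among all genes compared 9.24% were higher and 3.88% lower by that rule. Dach2, a transcriptional co-factor, had 21 counts in the control against 50 in TECRLscko (log2 ratio 1.17), the EYA co-activator Eya4 stood at 0.76 and Eya3 at -0.70. After the correction Eya4 was at 0.39, within 1.5-fold. Lbx1, a homeobox factor of migrating limb muscle progenitors and among the abundant genes of the list, stood at -0.31, at 64.1 against 51.8 CPM.

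Of 20 repressors and co-activators of MEF2, 3 were at least 1.5-fold higher and 1 was lower, with a median of -0.05. The shares of all genes were 9.24% higher and 3.88% lower. The TEA domain factor Tead1 (1.16) was 2.30-fold higher, at 10.6 against 24.5 CPM, and its relative Tead4 (-0.61) was 1.58-fold lower. Hdac9 (0.83), a class IIa deacetylase that represses MEF2, and the calcineurin subunit Ppp3ca (0.63) were the other higher genes. Hdac4 (0.23), Hdac5 (-0.04) and Hdac7 (-0.17), which also bind MEF2, were within 1.5-fold, as was the abundant kinase gene Camk2a (-0.21). Tead1 (0.77) was the 1 gene of this list still past 1.5-fold after the length and GC correction.

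Genes that the factors are known to switch on differed in both directions. Of 18 early targets of MyoD and myogenin 16 reached 1 CPM, 2 were at least 1.5-fold higher and 2 lower, with a median of 0.02. Among all genes compared 9.24% were higher and 3.88% lower by that rule. The lower genes were Mybph, a myosin-binding protein, which went from 247 to 95.4 CPM (log2 ratio -1.37), and the fetal actin Actc1, from 894 to 379.9 CPM (-1.23). Both remained at least 1.5-fold lower after the correction, at -1.17 and -1.05. The higher genes were titin, Ttn (0.81, but -0.25 after the correction for its very long message), and the embryonic myosin Myh3 (0.76), on 72 against 108 counts. The fusion protein myomaker, Mymk, had 20 counts in the control against 17 in TECRLscko, and its partner myomerger, Mymx, had 9 and 4 counts, too few to give a direction. Among the genes past 1.5-fold in these lists, Zeb1, Bhlhe41, Tead1, Ppp3ca, Actc1, Mybph, Ttn and Xirp2 overlap another gene model, and the strand setting of the counting is not stated; each kept its direction and stayed past 1.5-fold when the counts of overlapping models were added.

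Of 20 targets of MEF2 in the fiber 3 were higher and 2 lower by the 1.5-fold rule, with a median of 0.10. The shares of all genes were 9.24% higher and 3.88% lower. Fhl1, a LIM protein of the sarcomere, went from 522 to 1262 CPM (1.27), and Xirp2 (0.92, or 0.31 after the correction) and Hdac9 were the other higher genes. The nuclear receptor Nr4a1 (-0.62) and the glucose transporter Slc2a4 (-0.60) were the lower ones, and the most abundant genes of the list, muscle creatine kinase, Ckm, and the Z-disc protein Tcap, stood at -0.39 and -0.02. After the correction neither Nr4a1 (-0.43) nor Slc2a4 (-0.48) reached 1.5-fold, and of the higher genes Hdac9 (0.47) did not either. Mef2c (-0.95), which is itself in this list, and the chaperone Hspb7 (0.49 before, 0.68 after) then passed the rule in opposite directions.

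**Figure D5:**
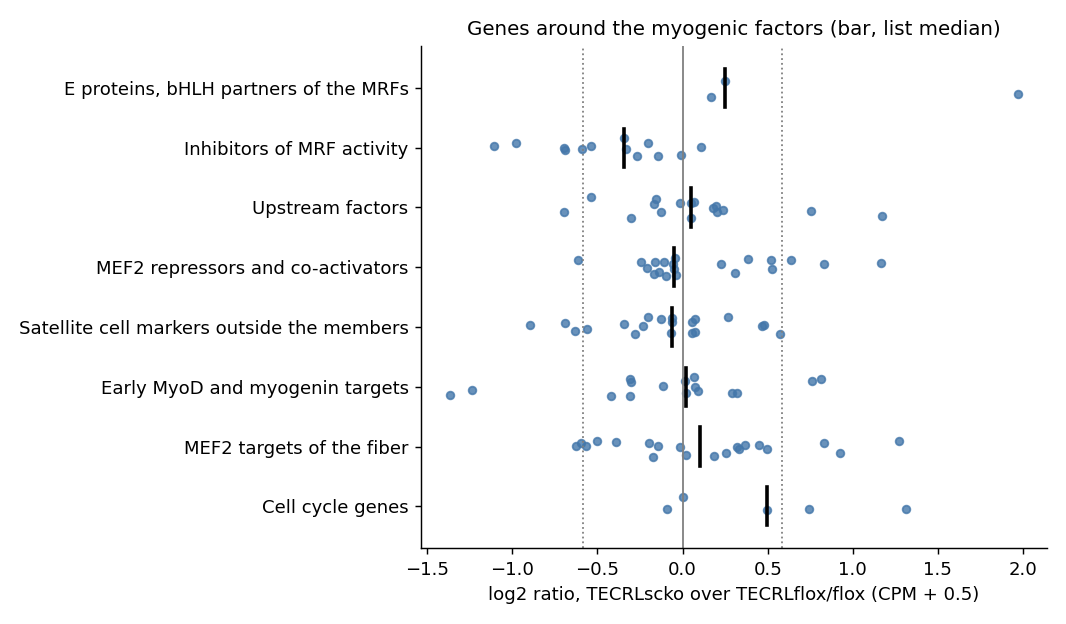
Log2 ratio of TECRLscko over TECRLflox/flox for each gene at or above a mean of 1 CPM in 8 lists of genes around the myogenic factors; each point is a gene, the bar is the list median and dotted lines mark 1.5-fold. The inhibitors of the bHLH factors have their median at -0.34, which includes Snai1 and Twist1, genes that passed the filter only through the control. The 2 target lists spread to both sides of 0.

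Markers of satellite cells other than the 9 factors lay on both sides of the control. Of 20 such genes 8 were above and 12 below the control, 3 were at least 1.5-fold lower and none 1.5-fold higher, with a median of -0.06. Of all 12559 genes 3.88% were lower and 9.24% higher by that rule, and 6510 lay below the control. The chemokine receptor Cxcr4 (-0.90), the calcitonin receptor Calcr (-0.69, on 56 against 26 counts), which is tied to quiescence, and Chrdl2 (-0.63, on 35 against 16 counts) were the lower genes, and the cadherin Cdh15 stood at 0.07. Chrdl2 reached the mean of 1 CPM only through the control, so its part in the counts of 12 and 3 follows from the filter. After the length and GC correction Cxcr4 (-0.86) and Calcr (-0.77) stayed past 1.5-fold and Chrdl2 (-0.48) did not. Tenm4 (0.57), Peg3 (0.48), Chodl (0.46) and Met (0.27) lay above the control with counting intervals of the ratio above 1; after the length and GC correction they stood at 0.21, 0.15, 0.37 and -0.03. The abundant genes of this list, desmin, Des (-0.06), and Cd34 (-0.13), are also made by fibers and by endothelial cells respectively. Of 8 cell cycle genes 5 reached a mean of 1 CPM. Past 1.5-fold were the proliferation marker Mki67, with 9 counts in the control against 31 in TECRLscko (4.11-fold, 1.91 to 9.81), and the topoisomerase Top2a, with 16 and 28 counts (2.09-fold, 1.09 to 4.13). Both reached that mean only through the TECRLscko library, so their number is not a result about the list. After the length and GC correction Mki67 (0.92) was still past 1.5-fold and Top2a (0.46) was not. Cyclin D1, Ccnd1, stood at 0.50, and Pcna, a replication clamp, at 15.1 against 15.2 CPM. The replication licensing gene Mcm2 stood at -0.09, on 171 against 134 counts. Under a mean of 1 CPM were cyclin A2, Ccna2, at 13 against 9 counts, Cdk1, at 13 against 18 counts, and cyclin B1, Ccnb1, at 1 count in each library.

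Markers of fiber types and of other cells that transcribe some of the factors were read beside these results, and their part in them was not tested. Slow fiber genes were higher: 8 of 8 exceeded their control level, 6 by the 1.5-fold rule, and their sum was 1905 CPM in the control against 3325 CPM in TECRLscko. By that rule 9.24% of all genes were higher. Of the 6, Myh7, Atp2a2 and Tnnc1 overlap other gene models. With the counts of those models added, Myh7 stayed at 1.06 and Atp2a2 at 0.86. Tnnc1 (0.98) then stood at 0.53, within 1.5-fold. The 10 fast fiber genes summed to 113536 against 104061 CPM, with Myh2 (0.70) the 1 gene past 1.5-fold. Endothelial cells, which also make Mef2c, had 8 markers that summed to 545 against 519 CPM, none of them 1.5-fold apart. B cells, another source of Mef2c, were near 0, with 28 and 21 counts over 4 markers and none at 1 CPM. Melanocyte markers, read because melanocytes make Pax3, came to 9 counts in each library over 5 genes, with Tyr at 0. Of 6 genes concentrated at the neuromuscular junction, 5 were below the control with a median of -0.46. Over all 12559 genes 6510 lay below the control. Musk (0.59) was 1.5-fold higher. Colq (-0.59) was 1.5-fold lower but stood at -0.41 with an overlapping gene model added and at -0.43 after the length and GC correction. The 6 myeloid markers summed to 112 against 102 CPM, with Cd68 (-0.69, or -0.50 after the correction) lower by the 1.5-fold rule, and the 7 Schwann cell markers to 182 against 149 CPM. The 6 markers of fibro-adipogenic progenitors summed to 1186 against 1124 CPM, with Ly6a (-0.75) lower, and the 6 of smooth muscle cells and pericytes to 589 against 713 CPM, a sum weighted by Rgs5 (364 against 499.9 CPM), with 3 above, 3 below and none past the rule.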

How the data were processed

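Per the labels' protocols, total RNA was extracted with a commercial kit, made into libraries with a VAHTS Universal V6 kit, and read on an Illumina NovaSeq. The submitters' processing notes name StringTie 1.3.0, HISAT2 2.0.4, CASAVA and GRCm38; which counter, strand setting, annotation release and filters were used is not given in the sources used here. The deposited counts are whole numbers with no normalization. The deposited FPKM values are the authors' counts divided by a gene length and the library total: the length implied by the control matched that implied by TECRLscko within 1% for 100% of 13061 genes with at least 10 counts in each.

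Counts were scaled with TMM (edgeR 4.0.16, R 4.3.3; factors 1.02 for TECRLflox/flox, 0.977 for TECRLscko), and log2 ratios used CPM plus 0.5. Genes averaging 1 CPM or more were compared and called from 1.5-fold. Ratio intervals are exact 95% Clopper-Pearson intervals on the summed counts, and ratios of ratios are conditional odds ratios with exact 95% intervals (scipy 1.17.1). No molecular identifiers are named in the labels and reads are not independent molecules, so the intervals and a floor of 3 counts (0.152 CPM in the control, 0.181 CPM in the TECRLscko library) cover counting error only. Transcript length and GC content are those of the longest GENCODE M21 transcript, found for 34267 genes, and the correction is a lowess fit (span 0.3, statsmodels 0.14.6). Intervals and correction were tested on simulated data.

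The 9 factors and the 8 lists of 117 genes around them were chosen with earlier results of these data known. All factors are named; of each list, up to 6 genes past 1.5-fold and up to 2 of the most abundant are named, and other genes were chosen after their values were seen. Some genes that the rule takes are left out of the text. Alternatives tried were size factors from DESeq2 1.42.0, scaling by total count, deposited FPKM, other pseudocounts and filters, the length and GC corrections, sums with overlapping models, a 2-fold rule and other group sums.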

Additional observations from a re-analysis of the deposited data

How the results depend on the processing

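No paired analysis was possible because there was a single library per genotype, and for the same reason no replicate could be left out. The count of 2 factors at least 1.5-fold lower was 0 under a 2-fold rule, 1 with a pseudocount of 1 (Myod1) and 1 after the length and GC correction (Mef2c in place of Myod1 and Myog; after the length correction alone the 2 were Myod1 and Mef2c), and 3, with Myf6 added, under total-count scaling, FPKM and a pseudocount of 0.1. The count of 0 higher factors was 1 (Pax7) with a pseudocount of 0.1. The commitment to fiber proportion, -0.43 on the log2 scale, was -0.17 after the length and -0.058 after the length and GC correction. Over all genes the 1161 higher became 758 with FPKM, 571 after the length and GC correction and 286 at 2-fold, and the 487 lower became 753 without a filter, 276 among genes averaging 5 CPM or more and 100 at 2-fold; fewer or more genes were compared under FPKM and the filters. In the 8 lists together 12 of 109 compared genes were higher and 14 lower, against 9.24% and 3.88% of all genes. The higher became 7 with FPKM and after either correction and 5 at 2-fold. The lower became 9 among genes averaging 5 CPM or more and 3 at 2-fold. The cause was not tested where the alternative does not itself set the count. Under the settings run, no log2 ratio of the 8 factors changed sign; Myod1 ranged from -0.83 to -0.51, Myog from -0.68 to -0.38, Mef2c from -0.95 to -0.50, Mef2a from 0.10 to 0.46 and Pax7 from 0.37 to 0.63. Total-count scaling lowers all log2 ratios by 0.07 before the pseudocount. Without Pax7 the stem cell sum is 4 Pax3 counts per library, and the log2 commitment to stem cell proportion of -1.32 is then -0.95. Depth limits Pax3, Pax7 and Myf5.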
